A study of Rattus norvegicus with 12 samples.

Results

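Chemokines of stem cell and lymphocyte homing and their receptors were followed in fracture hematoma tissue of rats, at 9 genes chosen by name: the ligands Cxcl12, Cxcl13, Ccl19, Ccl21 and Cx3cl1 and the receptors Cxcr4, Ackr3, Ccr7 and Cx3cr1. A probe set counted for a gene if the platform annotation gave it that 1 symbol, and where several did, the one with the highest mean over all arrays was taken. This gave values for 8 of the 9 genes, from 12 probe sets, out of 14217 genes and 31042 probe sets in all. No probe set was named for Ccr7, the receptor of Ccl19 and Ccl21, so Ccr7 was not analysed here.

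The hematoma was taken 3 days after the left femur of Sprague–Dawley rats had been cut and held open at a gap of 1.5 mm by an external fixator. The groups were old rats with semi-rigid fixation (OSR), old rats with rigid fixation (OR), young rats with semi-rigid fixation (YSR) and young rats with rigid fixation (YR). Old rats were 52 weeks and young rats 12 weeks of age, and the fixator stood 15 mm from the bone in the semi-rigid and 7.5 mm in the rigid configuration. Each group had 3 arrays, and the RNA on each array was a pool of 3 animals, all female, so that the spread between arrays is a spread between pools and not between rats. All groups had the same osteotomy, and none was left without surgery.

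Homing chemokines are secreted or membrane-bound signals that guide cells out of the blood and through tissue. Cxcl12, made by stromal and endothelial cells, holds and attracts stem cells, progenitors and leukocytes through Cxcr4, while Ackr3 binds the same ligand and mainly removes it. Cxcl13 draws B cells through Cxcr5, and Ccl19 and Ccl21 draw T cells and mature dendritic cells through Ccr7. Cx3cl1, or fractalkine, is anchored in the membrane of endothelial and other cells, from which proteases can release it, and binds Cx3cr1 on monocytes and other leukocytes. In a healing fracture such signals take part in bringing stromal progenitors and inflammatory cells into the gap.

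The largest differences between old and young rats were seen at 3 of the ligands, higher in old rats for Cxcl12 and Cxcl13 and lower in old rats for Ccl21, and their promoters are shown here for this reason. Each stretch runs from 250 bases before to 50 bases after the start of the gene in RefSeq (build GRCr8), at chr4:152060531-152060830 on the plus strand, chr14:13917871-13918170 on the minus strand and chr5:61777466-61777765 on the minus strand. Capitals mark matches on either strand to 7 motifs. The GC box was searched as GGGCGG. For the TATA box the letters were TATAAA. Hypoxia response elements were searched by their core in the form ACGTG. A second form of that core, which differs at its first base, was GCGTG. The AP-1 motif was searched as TGANTCA, and the interferon response motif and the kappaB consensus by their usual patterns.
Cxcl12: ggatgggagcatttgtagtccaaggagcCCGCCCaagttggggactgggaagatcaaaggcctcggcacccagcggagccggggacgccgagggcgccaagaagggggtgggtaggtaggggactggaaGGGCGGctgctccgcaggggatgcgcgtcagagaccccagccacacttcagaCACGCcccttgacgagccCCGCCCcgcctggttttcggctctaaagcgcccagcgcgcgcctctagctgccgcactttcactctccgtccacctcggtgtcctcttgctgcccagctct
Cxcl13: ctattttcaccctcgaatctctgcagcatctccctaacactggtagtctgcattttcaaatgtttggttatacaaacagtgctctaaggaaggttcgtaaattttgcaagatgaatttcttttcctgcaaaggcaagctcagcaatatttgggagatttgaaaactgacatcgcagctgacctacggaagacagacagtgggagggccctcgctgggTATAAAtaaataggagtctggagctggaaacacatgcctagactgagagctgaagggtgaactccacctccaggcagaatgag
Ccl21: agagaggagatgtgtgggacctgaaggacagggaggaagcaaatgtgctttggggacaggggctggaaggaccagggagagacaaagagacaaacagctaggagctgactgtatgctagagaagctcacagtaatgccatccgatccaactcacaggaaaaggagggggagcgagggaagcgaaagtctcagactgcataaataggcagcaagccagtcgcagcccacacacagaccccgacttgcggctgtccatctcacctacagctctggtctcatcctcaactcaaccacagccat
The Cxcl12 stretch holds 3 GC boxes and 1 GCGTG core. The Cxcl13 stretch holds 1 TATA box, which begins 33 bases before the start site, and the Ccl21 stretch none of the 7. Of 33469 rat promoters of the same length, 33.1% hold a GC box, 29.7% a GCGTG core, 19.3% an ACGTG core, 14.2% a TATA box, 7.33% an AP-1 motif, 4.18% a kappaB motif and 3.92% the interferon motif. These are matches of letters only and no binding was measured.

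Values were signal intensities on a linear scale, compared as log2 with limma, which shares information on the spread over all probe sets. A gene was called at an adjusted p under 0.05 over all 31042 probe sets. In every one of 7 comparisons (age, fixation, their interaction and the 4 pairs that differ in 1 factor) and in the test over all 4 groups, 0 of the 8 genes passed. At an unadjusted p under 0.05, 3 of 8 differed with age (2 higher, 1 lower in old rats), against 8.59% of all probe sets, while 0.00644% of all probe sets passed after adjustment. For fixation 1 of 8 did (5.73% of all) and for the interaction 1 of 8 (3.8% of all). In the pairs, the count was 2 of 8 for OSR against OR (5.26% of all), 0 of 8 for YSR against YR (4.37%), 1 of 8 for OSR against YSR (4.36%) and 3 of 8 for OR against YR (8.34%). Over all 4 groups it was 3 of 8 (6.76%). After adjustment 0.00322% of all passed for OSR against YSR and 0.00322% for OR against YR, 0.00644% over the 4 groups and 0% in the other comparisons. The median log2 difference between old and young rats was 0.349 over the 8 genes and 0.0235 over all probe sets.
The arrays differed in RNA quality. Control probe sets at both ends of the Gapdh transcript give a ratio (3' over 5', log2) that grows as RNA degrades, and it was 2.95 in OR array 1 and 6.69 in YSR array 1, and from 0.33 to 1.59 in the other 10. Among those, the YR arrays were the highest at 1.02, 1.38 and 1.59, and the part of this in differences against YR was not tested. Blood cell genes were bright, with group means from 15.12 to 15.50 (log2) for the beta-globin gene Hbb and from 14.20 to 14.66 for the platelet chemokine Pf4. In a tissue of many cell types, fewer cells of a type and less RNA per cell cannot be told apart.

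**Figure D1:**
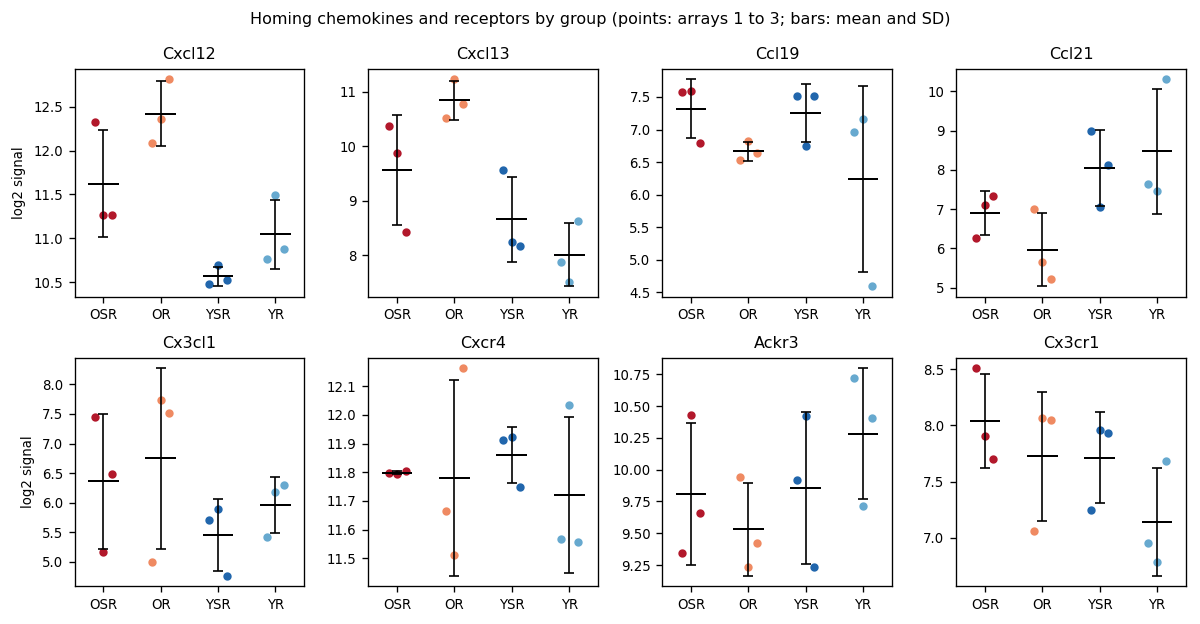
Log2 signal of the 8 homing genes in the 4 groups, with 1 point per array and bars for the mean and SD of 3 arrays. The OR arrays are the highest group for Cxcl12 and Cxcl13 and the lowest for Ccl21, whereas the groups overlap for Cxcr4.

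Cxcl12, the ligand of Cxcr4 and Ackr3, had a higher signal in old than in young rats under both fixations at its brightest probe set. The signals were 5157.4, 2471.6 and 2467.4 in OSR, 4342.7, 5260.8 and 7214.4 in OR, 1423.8, 1653.6 and 1473.3 in YSR and 1738.1, 2889.1 and 1876.3 in YR. Every OSR array was above every YSR array, and 8.98% of all probe sets had no overlap in that pair, in either direction. Every OR array was above every YR array, where 13.8% of all had no overlap. Across fixations, 4 of 6 old arrays lay above all young arrays, and OSR arrays 2 and 3 lay below YR array 2. Full separation of the ages, which Cxcl12 did not have, was found for 0.399% of all probe sets. The share of all probe sets with a partial separation, here and for the genes below, was not counted.
Averaged over fixation, old rats exceeded young rats by 1.22 (log2, standard error 0.20, a 2.33-fold difference), which did not pass (adjusted p = 0.0967 from limma). The difference was 1.06 (standard error 0.28) between OSR and YSR (adjusted p = 0.959 from limma) and 1.38 (standard error 0.28) between OR and YR (adjusted p = 0.207 from limma). Without OSR replicate 1 the difference of OSR and YSR was 0.71. The adjusted p of the age difference lay between 0.0398 and 0.897 over 21 alternatives, and the low end, without OSR replicate 3, was under the threshold.
By fixation, semi-rigid rats had the lower Cxcl12 signal, with a log2 difference of -0.64 (standard error 0.20) averaged over age (adjusted p = 0.845 from limma). In old rats OSR differed from OR by -0.80 (adjusted p = 0.896 from limma), where OSR array 1 overlapped with OR. In young rats every YSR array was below every YR array, in a pair where 9.38% of all probe sets had no overlap, and the difference was -0.48 (adjusted p = 0.991 from limma). It was -0.25 without YR replicate 2, and -0.04 with overlapping arrays at the second brightest probe set. The interaction was -0.32 with a 95% interval from -1.19 to 0.55, and it moved between -0.67 (without OSR replicate 1) and -0.12 (without OR replicate 3).

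The 3 probe sets of Cxcl12 gave unlike sizes of the age difference. At the second brightest the group means were 10.22 ± 0.57 in OSR, 10.87 ± 0.36 in OR, 9.93 ± 0.16 in YSR and 9.97 ± 0.10 in YR (log2, SD, n = 3 arrays each). There the age difference was 0.60 (adjusted p = 0.325 from limma), and OR exceeded YR by 0.91. OSR exceeded YSR by only 0.29 at this probe set, with a 95% interval from -0.25 to 0.82 and overlapping arrays. The third was dim and spread widely, with 6.19 ± 2.58 in OR and 5.81 ± 2.46 in YSR, and its age difference of 0.53 had a standard error of 0.92. The brightest and second probe sets shared the high values in OR and in OSR array 1.

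**Figure D2:**
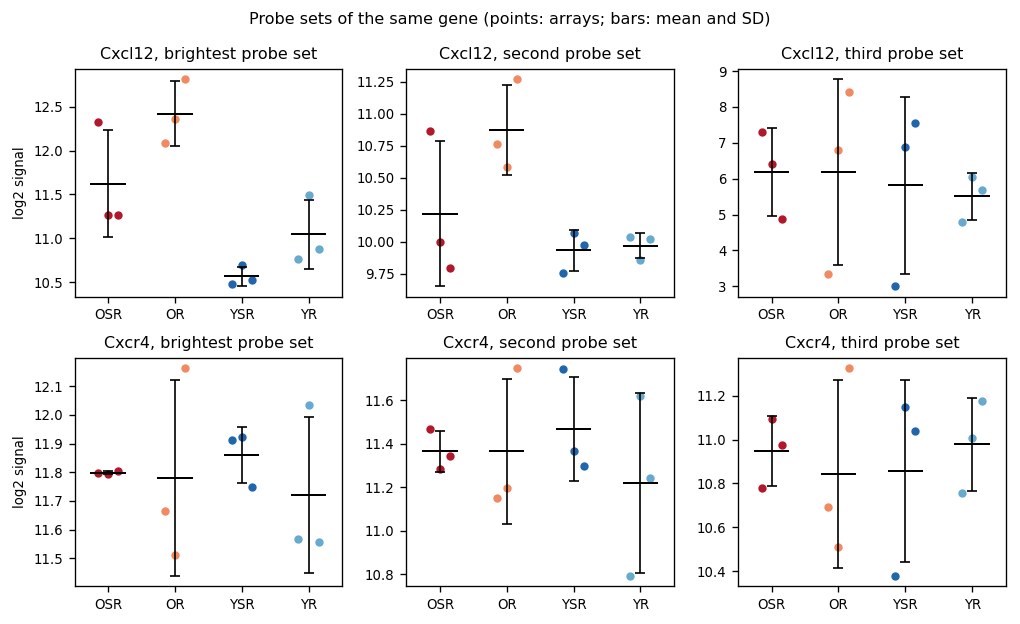
Log2 signal of each probe set of Cxcl12 and Cxcr4, from brightest to dimmest, in the 4 groups (points are arrays, bars the mean and SD of 3). OR is highest for Cxcl12 at the first 2 probe sets, and the third spans from 3.00 to 8.41 over the arrays.

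Cxcl13, which attracts B cells and is made by stromal and myeloid cells of lymphoid and inflamed tissue, was highest in old rats with rigid fixation. The signals were 1332.2, 943.6 and 346.6 in OSR, 1477.3, 2406.7 and 1747.3 in OR, 755.5, 302.2 and 290.1 in YSR and 236.3, 181.8 and 398.9 in YR. The 3 OR arrays were the highest of all 12, and 5 of 6 old arrays lay above all young arrays. The exception was OSR array 3, within the range of the young arrays. Between OR and YR alone, 13.8% of all probe sets had no overlap. The share of all probe sets with 1 group apart from all other arrays was not counted.
OR exceeded YR by 2.83 (log2, standard error 0.49, a 7.13-fold difference), without passing (adjusted p = 0.163 from limma), whereas OSR exceeded YSR by 0.91 with overlapping arrays (adjusted p = 0.959 from limma). Leaving out OSR replicate 1 gave 0.50 for OSR against YSR, and leaving out OSR replicate 3 gave 1.47. Averaged over fixation the age difference was 1.87 (standard error 0.34, limma's adjusted p = 0.129). With only the OR and YR arrays in the fit, that pair passed in limma (adjusted p = 0.0204, in a range of 0.0204 to 0.613 over 20 alternatives). Without OSR replicate 3, the age difference was 2.15 and passed in limma (adjusted p = 0.0277, in a range of 0.0277 to 0.426 over 19 alternatives).
The Cxcl13 differences by fixation had opposite signs in old and young rats, and their size rested on single arrays. OSR differed from OR by -1.28 (standard error 0.49, limma's adjusted p = 0.901), and all 3 OSR arrays were below all 3 OR arrays, while 10.8% of all probe sets were without overlap in this pair. This difference was -0.71 without OSR replicate 3. YSR differed from YR by 0.65 (standard error 0.49, limma's adjusted p = 0.991), and these arrays overlapped. It was 0.20 without YSR replicate 1, the array with the highest Gapdh ratio, and 0.40 without YR replicate 2. The interaction, the OSR to OR difference less the YSR to YR difference, was -1.93 (standard error 0.69) and did not pass (adjusted p = 0.99 from limma). It was -1.36 without OSR replicate 3 and -2.33 without OSR replicate 1.

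Ccl21, a ligand of Ccr7 made by lymphatic endothelium and by stromal cells of lymph nodes, had a lower signal in old rats. The signals were 76.3, 137.9 and 160.1 in OSR, 128.3, 50.3 and 37.3 in OR, 510.0, 133.1 and 277.5 in YSR and 199.2, 175.4 and 1269.6 in YR. Every OR array was below every YR array (13.8% of all probe sets had no overlap in this pair), and 4 of 6 old arrays lay below all young arrays. One pool, YR array 3, had a signal several times that of the other YR arrays.
The age difference was -1.83 (log2, standard error 0.52) averaged over fixation and did not pass (adjusted p = 0.311 from limma). OR differed from YR by -2.51 (standard error 0.74, limma's adjusted p = 0.353), or by -1.59 without YR replicate 3, and OSR differed from YSR by -1.16 (adjusted p = 0.959 from limma), or by -0.69 without YSR replicate 1. The mean of this probe set, 7.34, was near the median of all probe sets, 7.16 (log2).

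Ccl19, which also binds Ccr7 and whose gene lies near Ccl21 on chromosome 5, had a positive age difference where that of Ccl21 was negative, and neither passed. Its signal lay between 111.4 and 192.6 in OSR, 92.4 and 113.3 in OR, 107.1 and 183.8 in YSR, and 24.1 and 143.3 in YR. The arrays overlapped in all 4 pairs, and the age difference was 0.25 with a 95% interval from -0.64 to 1.13. Its widest pair was YSR and YR, with a difference of 1.02 (standard error 0.58, limma's adjusted p = 0.991). This rested on YR array 3, without which it was 0.20.
Cx3cl1 had its lowest values in young rats on average but spread within the old groups. The signal was 174.0, 35.7 and 89.3 in OSR and 31.8, 212.3 and 183.7 in OR, against 27.2 to 59.1 in YSR and 42.7 to 78.4 in YR. In old rats, 4 of 6 arrays lay above all young arrays and the other 2 within the young range. The age difference was 0.85 (standard error 0.53, limma's adjusted p = 0.689), or 1.29 without OR replicate 1. Ccl19 and Cx3cl1 both had a mean signal under the median of all probe sets (6.87 and 6.13).

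**Figure D3:**
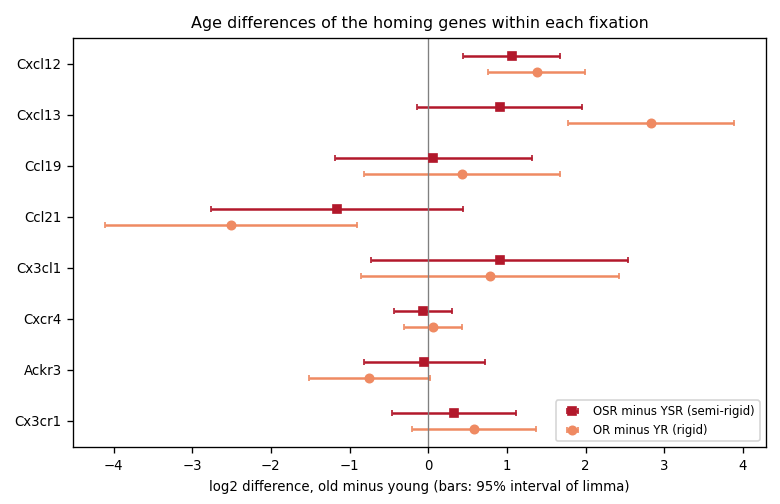
Log2 difference between old and young rats for each homing gene, under semi-rigid fixation (OSR minus YSR, squares) and under rigid fixation (OR minus YR, circles), with 95% intervals from limma. Each gene is shown at its brightest probe set. The interval for Cxcl12 lies above 0 under both fixations, and those for Cxcr4 are the narrowest around 0. Those for Cxcl13 (above) and Ccl21 (below) are clear of 0 under rigid fixation only. None passed after adjustment.

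Cxcr4, the signalling receptor of Cxcl12 on leukocytes and progenitors, had nearly the same signal in all groups. Its log2 mean was 11.80 ± 0.01 in OSR, 11.78 ± 0.34 in OR, 11.86 ± 0.10 in YSR and 11.72 ± 0.27 in YR (SD, n = 3 arrays each). The age difference was -0.0015, and its 95% interval from -0.26 to 0.26 allows a difference of that size in either direction. No pair differed by more than 0.14, which was the difference of YSR and YR and was 0.30 without YR replicate 2 and 0.06 without YR replicate 3. The 2 other probe sets gave age differences of 0.02 and -0.02. The brightest Cxcr4 probe set is of a type (x_at) that can also bind similar transcripts, which was not tested.
Ackr3, the scavenger of Cxcl12, had its highest mean in YR and its lowest in OR. Signals ranged from 649.2 to 1378.7 in OSR, 603.1 to 982.4 in OR, 601.7 to 1371.7 in YSR and 840.6 to 1690.9 in YR. The difference between OR and YR was -0.75 (standard error 0.35), with overlapping arrays (adjusted p = 0.604 from limma). Averaged over fixation old rats differed by -0.40, with a 95% interval from -0.94 to 0.14, and by -0.26 without YSR replicate 2.
Cx3cr1, the fractalkine receptor of monocytes, ranged from 207.9 to 363.7 in OSR, 133.8 to 267.3 in OR, 152.0 to 248.6 in YSR and 110.4 to 206.1 in YR. The age difference was 0.45 (standard error 0.26, limma's adjusted p = 0.653), and the arrays overlapped in all 4 pairs. The largest pair difference was 0.58 between OR and YR, and it was 0.91 without OR replicate 1. In order of their means the groups were OSR, OR, YSR and YR, and the ranges of all neighbours in this order overlapped.

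Ligand and receptor signals were compared over the 12 arrays in 4 pairs, with permutation tests and p-values adjusted over the 4. Arrays were shuffled freely across groups, so these tests cannot tell a relation between 2 genes from a group difference that both share. For Cxcl12 and Cxcr4, Pearson's r was 0.169 (permutation p = 0.598, adjusted 0.621) and Spearman's rho 0.021 (permutation p = 0.956). For Cxcl12 and Ackr3, r was -0.531 (permutation p = 0.0767, adjusted 0.195) and rho -0.336 (permutation p = 0.287). For Cxcl13 and Cxcr5, the B cell receptor of Cxcl13, r was -0.157 (permutation p = 0.621, adjusted 0.621) and rho -0.0629 (permutation p = 0.851).
For Cx3cl1 and Cx3cr1, r was 0.504 (permutation p = 0.0973, adjusted 0.195) and rho 0.51 (permutation p = 0.094). No relation passed. After the group means were taken off, r was 0.574, -0.569, -0.43 and 0.62 in the same order. Permutation gave p = 0.0497, 0.0559, 0.161 and 0.0331 (not adjusted), with arrays shuffled freely across groups. Such shuffling ignores the group means already taken off, so these p-values are too small and no conclusion is drawn from them. With group means kept, the 2 arrays whose ligand signal was farthest from the median were left out, OR arrays 2 and 3 in each case. There r was 0.0173, -0.333, 0.15 and 0.382 (permutation p = 0.962, 0.344, 0.697 and 0.277).
As a description, the genes whose log2 signal followed a member most closely were sought among 9557 other genes with a signal at or above the median, over the 12 arrays. For Cxcl12 these were Lbp (r = 0.957), Cdo1 (0.949) and Hmgn2 (0.945), and for Cxcl13 Cald1 (0.95), Nid1 (0.935) and Adamts12 (0.935). For Ccl21 they were Psmd4 (0.919), Heatr3 (0.915) and Ola1 (0.903). Cxcr4 was followed by Agtrap (0.881), Ifngr2 (0.863) and Coro1a (0.853), Ackr3 by Actr8 (0.918), Pvr (0.915) and Pkp1 (0.913), and Cx3cr1 by Apaf1 (0.952), Trpm4 (0.951) and Shox2 (0.893). All share the same arrays and groups, and the best of so many genes is high by selection.

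Of 40 other genes of homing, 34 had a probe set, and 0 passed in any of the 7 comparisons with limma. At an unadjusted p under 0.05, 9 were higher and 2 lower in old than in young rats, which compares with 8.59% of all probe sets in either direction. The median age difference of the 34 was 0.227. Both selectins measured and Vcam1, which bind circulating cells to the vessel wall, were among the 9. The log2 signal of Sele, the E-selectin of activated endothelium, was 7.21 in OSR, 8.55 in OR, 6.01 in YSR and 6.63 in YR (group means), an age difference of 1.56 (standard error 0.39, limma's adjusted p = 0.247).
Selp, the P-selectin of endothelium and platelets, differed with age by 1.10 (adjusted p = 0.256 from limma) and Vcam1, the endothelial ligand of integrin alpha 4, by 0.93 (adjusted p = 0.212 from limma). Icam1, the endothelial ligand of beta 2 integrins, differed by -0.01, with a 95% interval from -0.24 to 0.22, and the sign turned when some single arrays were left out and with quantile normalization. For Itgb2, the beta 2 integrin chain of leukocytes, the difference was -0.42 (adjusted p = 0.361 from limma), lower in old rats.
The 3 scavenging receptors outside the members were higher in old rats at an unadjusted p under 0.05, without passing after adjustment. Ackr1, of venular endothelium and red cells, differed by 1.29, and Ackr2, which removes inflammatory CC chemokines, by 0.78. For Ackr4, which removes Ccl19 and Ccl21, the difference was 0.63 (adjusted p = 0.424, 0.494 and 0.553 in this order from limma). Ackr3, the scavenger among the members, went the other way with -0.40 (adjusted p = 0.686 from limma). These roles were assigned after the values were seen. In the sphingosine 1-phosphate axis, which lets lymphocytes leave tissue, the receptor S1pr1 differed by 0.54 (adjusted p = 0.212 from limma) and the kinase Sphk1 by 0.61 (adjusted p = 0.248 from limma). Cxcl16, the ligand of Cxcr6, differed by 0.41, and Adam17, a protease that sheds fractalkine, by -0.41. Ackr1, Ackr4 and Cxcl16 were named after their values were seen. Among 3 measured signalling receptors (Cxcr3, Cxcr5 and Ccr6), 0 had an unadjusted p under 0.05 with age.
By fixation, 3 of the 34 were higher and 2 lower in semi-rigid than in rigid rats at an unadjusted p under 0.05, against 5.73% of all. Gnai2, the G protein subunit through which chemokine receptors signal, was higher in every semi-rigid array than in every rigid array, which held in either direction for 0.254% of all probe sets. Its difference was 1.13 (standard error 0.34) and did not pass (adjusted p = 0.845 from limma), and without OR replicate 1 it was 0.75. Itgb2 had the smallest p of the 34 here, with a difference of 0.50 (standard error 0.13, limma's adjusted p = 0.84). S1pr1 differed by -0.38 and Sele by -0.98, both lower in semi-rigid rats (adjusted p = 0.845 each from limma).
In old rats alone, OSR differed from OR by 0.64 for Itgb2, -0.61 for S1pr1, 1.29 for Gnai2 (0.53 without OR replicate 1) and -0.58 for Sphk1. In young rats Ackr2 was higher in YSR than in YR by 1.42 (adjusted p = 0.991 from limma). Of the interactions, that of Icam1 was -0.60 (standard error 0.21) and that of Ackr2 -1.35 (standard error 0.61), with an adjusted p of 0.99 each from limma.
Within rigid fixation, OR exceeded YR by 0.77 for S1pr1, 0.91 for Sphk1, 1.15 for Vcam1 and 1.91 for Sele. Within semi-rigid fixation, OSR differed from YSR by 0.72 for Vcam1, 0.88 for Selp and -0.44 for Adam17. Without OSR replicate 1 these were 0.36 for Vcam1 and 0.44 for Selp. None of these pair differences passed.

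**Figure D4:**
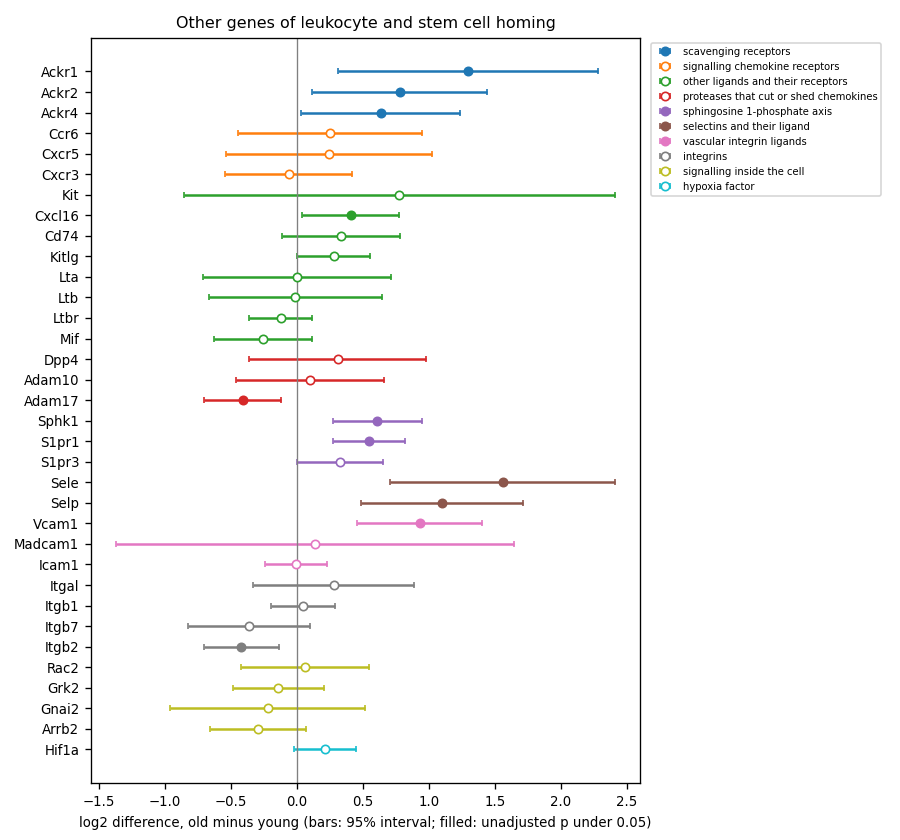
Log2 difference between old and young rats, averaged over fixation, for 34 other homing genes ordered by role, with 95% intervals from limma and filled points at an unadjusted p under 0.05. The filled points above 0 include both selectins, Vcam1, S1pr1, Sphk1 and the 3 scavenging receptors other than Ackr3, and those below 0 are Adam17 and Itgb2. Ackr3 is a member and is not shown here. None passed after adjustment.

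Markers of several cell types differed along with the homing genes, and their part in these results was not tested. The counts of markers below at an unadjusted p under 0.05 are for age, where 8.59% of all probe sets reached that level. All 6 measured markers of blood endothelium were higher on average in old rats, 4 of them at an unadjusted p under 0.05, and all 6 were lower in semi-rigid than in rigid rats. Their summed signal ranged from 3896.5 to 8235.0 in OSR, 6323.4 to 12174.2 in OR, 3791.0 to 4898.6 in YSR and 4500.8 to 5356.5 in YR. OSR array 1, which had the high Cxcl12 signal in its group, had 8235.0, against 4430.9 and 3896.5 in OSR arrays 2 and 3. In OR, array 3 had the highest Cxcl12 signal but the lowest sum (6323.4), and array 2 the highest sum (12174.2). In YR, array 2 was highest for both, whereas in YSR array 2 was highest for Cxcl12 and array 1 for the sum. For stromal cells, 6 of 8 markers were higher in old rats (3 at an unadjusted p under 0.05), and their sum was 87276.7 to 133069.1 in OSR, 120158.7 to 147958.8 in OR, 104097.0 to 121104.1 in YSR and 88677.4 to 121317.1 in YR.
Beside Ccl21, 3 of 4 markers of lymphatic endothelium were lower in old rats (2 at an unadjusted p under 0.05), and their sum of 3220.3 to 4627.0 in OR was below that of 9337.8 to 9964.4 in YR. In OSR it was 5409.9 to 11056.8 and in YSR 9482.9 to 10844.8. Most of this sum came from Pdpn (52.8%), which other cells also make. Lyve1 was the other bright marker, with log2 means of 11.85 in OSR, 10.68 in OR, 12.07 in YSR and 12.11 in YR. Prox1, a defining marker, was dim (6.11 and 6.12 in OSR and OR, 6.81 and 6.73 in YSR and YR, log2 means). Flt4, also dim, went the other way, with 6.74 and 5.56 in OSR and OR and 5.43 and 5.31 in YSR and YR. The part of other cell types in this sum was not tested.
Beside Cxcl13, 5 of 8 B cell markers were measured and 0 had an unadjusted p under 0.05 for age. Their sum was 897.3 to 1249.2 in OSR, 745.2 to 1729.1 in OR, 731.3 to 933.7 in YSR and 592.9 to 1496.6 in YR. The defining marker Ms4a1 had log2 means of 5.84 in OSR, 7.20 in OR, 6.34 in YSR and 6.63 in YR, around or under the median of all probe sets.
Beside Cx3cr1 and Itgb2, 7 of 10 monocyte and macrophage markers were lower in old rats (4 at an unadjusted p under 0.05), with sums of 36318.5 to 49311.2 in OSR, 26016.7 to 40518.3 in OR, 47749.7 to 62756.0 in YSR and 42466.0 to 48255.4 in YR. Of 6 measured neutrophil markers, 4 were higher in old rats at an unadjusted p under 0.05, with sums of 21906.0 to 61555.4 in OSR, 34681.0 to 84799.6 in OR, 8866.7 to 16143.5 in YSR and 10610.5 to 47114.5 in YR. Dendritic cell markers gave 1 of 6 lower at that level (sums of 2706.7 to 4121.4 in OSR, 2950.3 to 3437.3 in OR, 3931.8 to 5806.5 in YSR and 3383.3 to 3860.5 in YR). T cell markers gave 1 of 11 in each direction and NK cell markers 2 of 6 higher.
Skeletal muscle signal set single pools apart. Its 6 markers summed to 1532.2 in OSR array 1 and 1531.4 in OR array 2, to 14225.7 in OR array 3 and to between 24400.6 and 100150.7 in the other arrays. These 3 pools with the lowest muscle sums had the 3 highest Cxcl12 signals of the 12 (5157.4, 5260.8 and 7214.4). OR array 1 had the next highest Cxcl12 signal, 4342.7, and a muscle sum of 56896.5. The part of muscle tissue in the Cxcl12 result was not tested. Adipocyte markers were higher in old rats at an unadjusted p under 0.05 in 3 of 4, platelet markers in 1 of 4 and erythroid markers in 0 of 3.

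**Figure D5:**
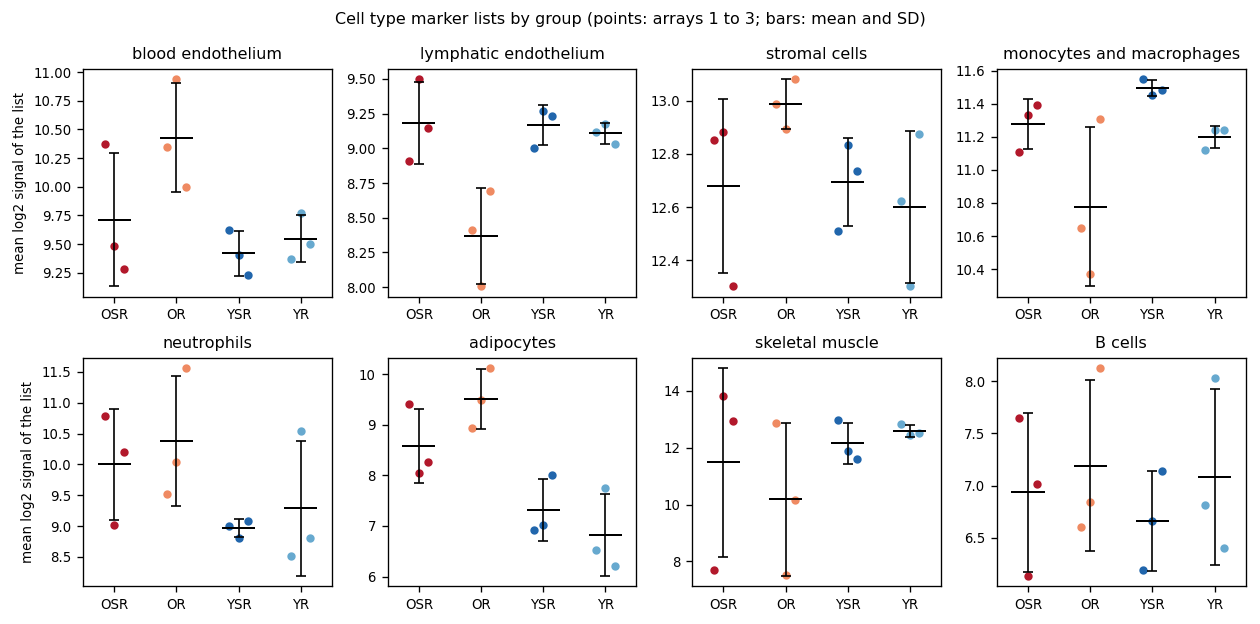
Mean log2 signal of 8 cell type marker lists in the 4 groups (points are arrays, bars the mean and SD of 3). Blood endothelium is highest and lymphatic endothelium lowest in OR, and skeletal muscle is low in OSR array 1 and OR array 2.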

How the data were processed

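Signals of 12 Affymetrix rat arrays (1 colour) were analysed as the linear intensity that the authors deposited for 31099 probe sets, with a common trimmed mean of 500.2 per array. GCOS 1.2 is named in the submitters' processing notes, and the PLIER summaries of the methods were not used here. Depth does not apply to arrays, and their number limits the precision. The genome build of the probes is not given in the sources used here.
A floor of 1 was applied before log2, and 57 control probe sets were left out. Symbols came from the platform annotation, updated through gene identifiers (20764 of 20832 single symbols matched, while 436 probe sets had several symbols and 9831 had none). Groups were compared with limma 3.58.1 in R 4.3.3 (lmFit and eBayes with an intensity trend, all 12 arrays, Benjamini-Hochberg over 31042 probe sets). The fit was tested on simulated data. Semi-rigid and rigid were set as semi-rigid minus rigid, and ages as old minus young. Relations used 100000 permutations, and both planned pairs with Ccr7 were not run. Python 3.11.15, pandas 2.3.3, numpy 2.4.6 and matplotlib 3.10.9 were used. Promoters are from RefSeq.
All members were named, with every array where an unadjusted p was under 0.05 in a comparison and otherwise by means and ranges. Of the other homing genes, those with such a p were named, at most 4 a comparison by smallest p. For members at or above the median signal, the 3 genes of highest Pearson r were named. Members, lists and rules were chosen with earlier results of these data known, and homing genes were grouped by role after their values were seen. Lists are described by counts and medians. Alternatives were quantile normalization, a pseudocount of 16, no dim probe sets, no trend, only the pair's arrays and the methods' variance analysis. Others were a replicate block, other probe sets (for members only), and leaving out each array or the 2 with the highest Gapdh ratio. The labels call the arrays biological replicates, each a pool of animals. The check of pairing by replicate number is given with the alternatives.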

Additional observations from a re-analysis of the deposited data

How the results depend on the processing

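Under the alternatives, 26 differences of members kept their direction and stayed uncalled in 507 of 523 values. So did 30 differences of other homing genes in 569 of 575, where other probe sets were not among the alternatives. At dimmer probe sets of these genes the age difference was -0.13 for Ackr2, -0.18 for S1pr1 and 0.57 for Selp. The means of those probe sets were low, at 4.28, 3.84 and 4.84 (log2) in this order, and the standard errors were 0.67, 0.63 and 0.54. The remaining differences named for S1pr1, and that of Selp in OSR against YSR, also had the opposite sign there. Called members went to 2 for age without OSR replicate 3 (Cxcl12 and Cxcl13), against a range of 0 to 2 when each array was left out, and to 1 for OR against YR (Cxcl13) with only the arrays of the pair. In 13 values of members the direction turned. For the age difference of Cxcr4, near 0, this was 0.0258 with quantile normalization, 0.0396 without the 2 arrays of highest Gapdh ratio, 0.0206 at the second probe set, and a range of -0.0971 to 0.0772 when single arrays were left out. For Cxcr4 in YSR against YR it was -0.123 at its dimmest probe set. For Cxcl12 at its dimmest probe set it was 0.158 for fixation, 0.0068 for OSR against OR and 0.31 for YSR against YR, and for the age difference of Ccl19 it was -0.166 without YR replicate 3, in a range of -0.166 to 0.477. The other 6 turned values were those of Icam1 with age, near 0, with 0.0047 under quantile normalization, 0.0842 without the 2 arrays of highest Gapdh ratio and a range of -0.063 to 0.0612 when single arrays were left out. The cause was not tested.
The replicate number did not pair the arrays: same-numbered arrays of different groups had a median correlation of 0.0193 over 18 pairs of their deviations from the group means (from -0.412 to 0.405), against 0.0196 over 36 others. With the replicate block the number of called members stayed 0 in every comparison, and the adjusted p from limma was 0.235 for the age difference of Cxcl12 and 0.243 for that of Cxcl13. Without the 2 arrays of highest Gapdh ratio the age differences were 1.28 for Cxcl12, 2.17 for Cxcl13 and -1.86 for Ccl21, while others moved by over 1.5 times, to 0.20 for Cxcl13 in YSR against YR, -0.69 for Ccl21 in OSR against YSR, 1.35 for Cx3cl1 with age, 0.91 for Cx3cr1 in OR against YR, -0.53 for the Cxcl12 interaction and 0.53 for Gnai2 in OSR against OR. Dim signals limit Ccl19, Cx3cl1 and Ccl21 among the members, and Ackr2, Ackr4 and Sele among the other homing genes named with age. The mean of Sele, 7.10, was under the median of all probe sets, 7.16 (log2). Ackr1 and Selp, with means of 7.38 and 7.41, were near Ccl21 at 7.34 and share this limit.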
